A study of Sus scrofa with 20 samples.

Results

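SNCAIP, ACPP, DCX, PRR16, PAIP2B, MRAS, DOCK8, SLCO3A1 and YPEL1 are 9 genes with little or no known role in the uterus. They were chosen by name, from genes that stood higher after insemination in these same libraries, so their difference from control is a description here and not a test. The pooled comparison of all inseminated sows with control chose most of them, and the FR1 group against control chose DOCK8, SLCO3A1 and YPEL1. The 9 are among 30345 gene rows of the count table and all 9 passed the filter on low counts, which kept 17745 genes. For the other 6 the choice did not use how the genes differ between the inseminated groups. The tests that chose the genes set the gap to control against the spread from sow to sow within groups. How the genes vary with one another within a group is not part of that gap. The families and cell-type markers were listed with earlier results of these data known, so they are not independent of the data.

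RNA was sequenced from whole uterine tissue of 20 wild-type Large White by Landrace crossbred sows, 1 library per sow, taken 6 days after the onset of estrus. Mean parity was 3.53 (SD 1.12), given as 1 value and not per group or per sow. The 5 CONTROL sows received no semen. In each other group 5 sows were inseminated by the post-cervical route when estrus began and again at 24 h intervals while standing heat lasted, with semen of 3 Pietrain boars. Inseminated sows had 2.53 inseminations on average (SD 0.74), with semen of 9 ejaculates, and the number for each sow is not given. FR1 sows received the sperm-rich fraction of the ejaculate alone, FR2 sows the rich plus the intermediate fraction, and FR3 sows both of these plus the poor fraction. The labels do not give which sows carried embryos, so semen and early pregnancy cannot be told apart as sources of any difference from control. The labels name 1 batch. Libraries held 32978955 to 62939044 counts, and each is called by its group and its column's number. Control libraries were less alike than the inseminated ones, with a mean Spearman correlation between libraries of 0.902; the FR1, FR2 and FR3 values were 0.957, 0.971 and 0.951.

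As background, the 9 genes belong to unrelated pathways. Synphilin-1, encoded by SNCAIP, is a neuronal adaptor protein found in the inclusions of Parkinson's disease, and doublecortin, encoded by DCX, binds microtubules in migrating neurons; both are best known from the nervous system. MRAS is a RAS-type GTPase that recruits SHOC2 and a protein phosphatase to switch on RAF kinases, and DOCK8 is an exchange factor for the GTPase CDC42, best known from migrating lymphocytes. PAIP2B binds the poly(A)-binding protein and represses translation, whereas PRR16 (also called Largen) has been described as raising cell size through translation. ACPP (now ACP3) is prostatic acid phosphatase, an enzyme that the prostate secretes into semen and that also exists as a membrane-bound form. SLCO3A1 is a membrane transporter of organic anions, among them prostaglandins, and YPEL1 is a member of the conserved, zinc-binding yippee-like proteins. In a uterus sampled at this time the endometrium is under progesterone, and the tissue is a mixture of glandular and luminal epithelium, stroma, muscle, vessels and leukocytes. In such bulk samples fewer cells of a type and less RNA per cell cannot be told apart.

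Levels are CPM, a gene's counts relative to its library's total, with totals scaled by TMM factors. They compare libraries for 1 gene and do not compare genes, since they are not per length. Fold changes are log2 differences with their standard error (SE) from edgeR's quasi-likelihood fit over all 20 libraries, and a gene was called when its Benjamini-Hochberg adjusted p over the 17745 genes was below 0.05.

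Among the genes with neuronal names, SNCAIP stood at 1.45, 2.04, 1.19, 2.60 and 2.52 CPM in CONTROL and at 27.6, 13.6, 10.6, 29.2 and 9.26 CPM in FR1. It stood at 18.0, 17.2, 28.9, 29.6 and 14.2 CPM in FR2 and at 4.19, 4.85, 15.0, 23.7 and 10.4 CPM in FR3. Every inseminated library was above every control. The highest FR3 library was 5.66 times the lowest, the largest such ratio of the 4 groups, and FR3_1 and FR3_2 were the lowest of all inseminated libraries. The log2 difference of the inseminated mean from control was 3.08 ± 0.44 (SE, 15 against 5 sows).

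DCX stood at 1.70, 2.81, 1.15, 1.68 and 0.810 CPM in CONTROL and at 7.05, 6.46, 5.21, 4.11 and 5.27 CPM in FR1. In FR2 the DCX values were 5.88, 6.74, 8.96, 7.92 and 6.47 CPM, and in FR3 they were 4.08, 6.20, 2.78, 4.97 and 7.52 CPM. Only FR3_3, at 2.78 CPM, fell under a control, CONTROL_2. The log2 difference from control was 1.86 ± 0.29.

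**Figure D1:**
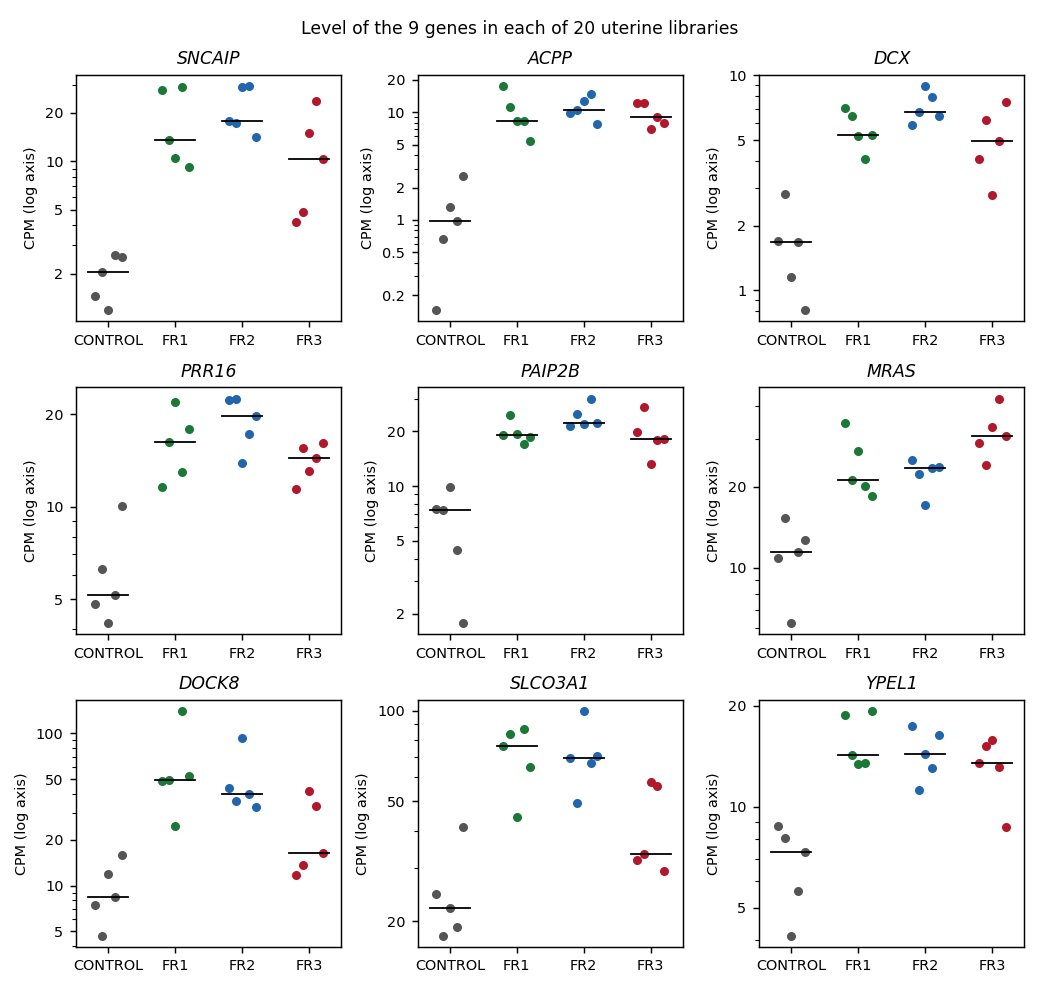
Level of each of the 9 genes in the 20 uterine libraries. Each panel is 1 gene, the vertical axis is TMM-scaled CPM on a log axis with its own range, each point is the library of 1 sow and the black line is the group median of 5. FR1 and FR2 points lie above all controls in every panel, and FR3 points reach down into the control range for DCX, DOCK8, SLCO3A1 and YPEL1.

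Of the GTPase regulators, MRAS stood at 10.9, 15.4, 6.26, 11.4 and 12.7 CPM in CONTROL and at 34.5, 21.2, 27.2, 20.2 and 18.5 CPM in FR1. MRAS stood at 25.1, 22.3, 17.1, 23.5 and 23.6 CPM in FR2 and at 29.0, 24.2, 33.4, 42.5 and 30.9 CPM in FR3. All 15 inseminated libraries were above all controls, and unlike the other 8 genes its group median was highest in FR3. Its log2 difference from control was 1.19 ± 0.20.

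DOCK8 was at 7.46, 4.70, 11.9, 8.36 and 15.8 CPM in CONTROL and at 49.0, 49.6, 24.7, 139.5 and 52.9 CPM in FR1. In FR2 it was at 43.7, 36.01, 93.0, 39.7 and 32.9 CPM, and in FR3 at 11.8, 13.6, 41.9, 33.6 and 16.4 CPM. FR1_4 and FR2_3 stood far above the other 4 libraries of their groups. The FR3 libraries FR3_1 and FR3_2 lay under the 2 highest controls or between them, so FR3 and CONTROL overlapped. The log2 difference from control was 2.71 ± 0.48 in FR1 (2.19 without FR1_4), 2.35 ± 0.47 for FR2 sows and 1.28 ± 0.46 for FR3 sows.

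The 2 genes tied to translation had no overlap between control and inseminated libraries. PAIP2B had 7.44, 7.41, 9.88, 4.44 and 1.78 CPM in CONTROL, 19.0, 24.5, 19.3, 17.0 and 18.6 CPM in FR1, 21.3, 24.9, 21.96, 30.1 and 22.2 CPM in FR2, and 19.7, 27.2, 13.3, 17.8 and 18.0 CPM in FR3. PRR16 had 4.82, 6.29, 4.20, 5.18 and 10.1 CPM in CONTROL, 11.6, 16.2, 21.9, 13.0 and 17.9 CPM in FR1, 22.2, 22.5, 13.9, 17.3 and 19.7 CPM in FR2, and 11.4, 15.6, 13.1, 14.4 and 16.1 CPM in FR3. For both genes the lowest inseminated library, 13.3 CPM for PAIP2B and 11.4 CPM for PRR16, was above the highest control. The log2 differences from control were 1.75 ± 0.28 for PAIP2B and 1.42 ± 0.21 for PRR16.

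Of the enzyme, the transporter and the yippee-like gene, ACPP had 0.147, 0.664, 1.33, 0.985 and 2.55 CPM in CONTROL and 17.6, 11.3, 8.30, 8.23 and 5.35 CPM in FR1. ACPP had 9.94, 10.4, 12.7, 14.7 and 7.73 CPM in FR2 and 12.2, 12.1, 7.03, 8.99 and 7.88 CPM in FR3. The groups did not overlap, and the FR1, FR2 and FR3 means of 10.2 ± 4.67, 11.1 ± 2.67 and 9.63 ± 2.39 CPM (SD, n = 5 each) lay within each other's spread. The log2 difference of the pooled inseminated group from control was 3.18 ± 0.46, the largest of the 9 there; in FR1 and FR2 that of SNCAIP was larger (3.20 against 3.16, and 3.46 against 3.29).

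SLCO3A1 had 24.7, 17.9, 22.1, 19.1 and 41.1 CPM in CONTROL and 76.3, 84.0, 44.5, 86.7 and 64.9 CPM in FR1. In FR2 its values were 69.7, 49.3, 99.4, 66.9 and 70.7 CPM, against 31.9, 33.4, 57.9, 56.4 and 29.3 CPM in FR3. FR3_1, FR3_2 and FR3_5 were under CONTROL_5, the highest control. The log2 difference from control was 1.51 ± 0.27 in FR1, 1.51 ± 0.27 in FR2 and 0.74 ± 0.26 in FR3.

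YPEL1 had 8.74, 8.05, 4.13, 5.60 and 7.32 CPM in CONTROL, 18.7, 14.2, 13.4, 13.5 and 19.2 CPM in FR1, 17.4, 11.2, 14.3, 13.0 and 16.3 CPM in FR2, and 13.5, 15.1, 15.8, 13.1 and 8.70 CPM in FR3. Only FR3_5 fell to the level of a control, CONTROL_1, and the inseminated groups overlapped each other throughout. The log2 difference of the pooled inseminated group from control was 1.096 ± 0.19, the smallest of the 9 there; MRAS was smaller in FR1 and FR2, and SLCO3A1 in FR3.

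Side by side, 9 of the 9 genes were called higher in the pooled inseminated group by edgeR, where 2.87% of all tested genes were. The count was 9 of 9 in FR1 against a background of 0.609%, 9 of 9 in FR2 against 1.57%, and 7 of 9 in FR3 against 1.43%; DOCK8 and SLCO3A1 were the 2 not called in FR3. These comparisons share the same 5 control libraries and chose the genes, so nothing is read from the counts. The count in FR1 was 2 of 9 without FR1_1, FR1_4, FR2_3 and FR3_4, where 21 of 18164 tested genes were called higher. It was 3 of 9 without CONTROL_2, CONTROL_3 and CONTROL_4, where 71 of 18832 genes were. With only the groups compared in the fit it was 0 of 9, and so were 0 of all 16731 genes tested there. The count in FR2 was 9, 5 and 1 of 9 in those settings and that in FR3 was 7, 0 and 0 of 9. Without FR3_2 alone the FR3 count was 4. Calls over all tested genes, in either direction, moved too. With only the groups compared, 1 gene was called in FR2 and 0 in FR3. Without CONTROL_2, CONTROL_3 and CONTROL_4, 7 genes were called in FR3. Leaving out each library in turn gave 58 to 1869 genes in FR3. These counts are therefore not read as a result about the members. In SNCAIP, ACPP, PRR16, PAIP2B and MRAS all 15 inseminated libraries were above all 5 controls, a pattern found in 0.265% of tested genes. All 5 FR1 libraries were above all controls for 9 of the 9 genes (1.24% of tested genes), as were all 5 FR2 libraries (2.51%), and all 5 FR3 libraries were for 5 of the 9 (1.01%). The choice of the genes bears on these counts too. The median log2 difference of the 9 was 1.75, against -0.05 over all tested genes.

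**Figure D2:**
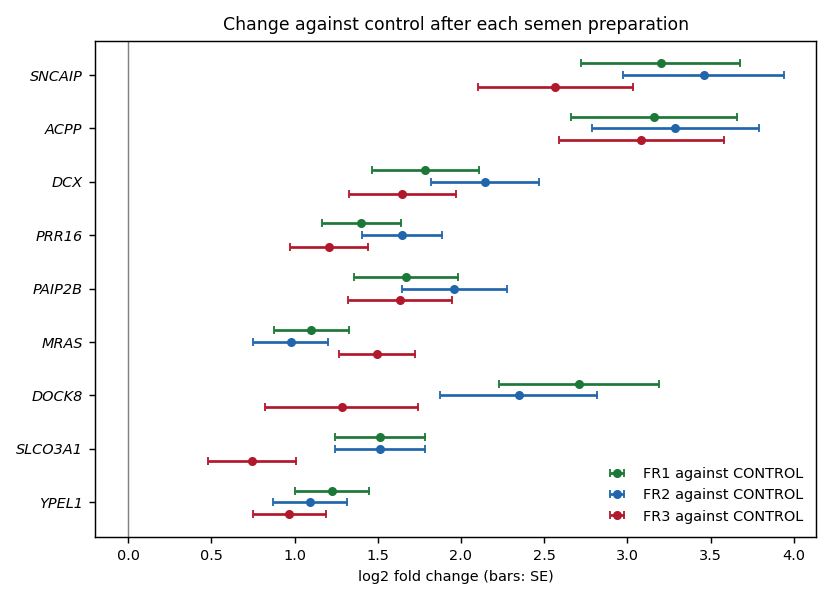
Log2 fold change of each gene in FR1, FR2 and FR3 against CONTROL. Points are edgeR estimates, horizontal bars are 1 SE and the grey line marks no difference. The 3 groups lie close together for ACPP, PAIP2B and YPEL1, whereas the FR3 points of DOCK8 (1.28) and SLCO3A1 (0.74) lie to the left of FR1 and FR2 and that of MRAS (1.497) to the right.

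Whether the fractions deposited made a difference to these genes was tested within the inseminated groups. No member passed the adjusted threshold in any of these comparisons. FR2 against FR1 gave 0 of 9 called by edgeR, as did DESeq2 and limma-voom, with 0 of 9 at an unadjusted p under 0.05. The background there was 0.0% of all tested genes called and 0.733% at that unadjusted p. SLCO3A1 was almost level between these groups, with a log2 difference of -0.0013 and a 95% interval from -0.55 to 0.55. The intervals of the others also allow changes in either direction; for DOCK8 it ran from -1.31 to 0.58 and for SNCAIP from -0.65 to 1.17.

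FR3 against FR1 also gave 0 of 9 called by edgeR, DESeq2 and limma-voom, beside a background of 0.0% called by edgeR. Of the 9 genes 2 had an unadjusted p under 0.05, where 8.29% of all tested genes did. DOCK8, the CDC42 activator, was lower in FR3 by a log2 difference of -1.43 ± 0.46 (95% interval -2.39 to -0.47, unadjusted p = 0.00574, adjusted p = 0.586, edgeR). Without FR1_4, the highest library, that difference was -0.91. SLCO3A1 differed by -0.77 ± 0.26 (interval -1.32 to -0.22, unadjusted p = 0.0089, adjusted p = 0.586, edgeR). In both genes the intervals leave out 0 before adjustment, but FR3_3 and FR3_4 lay within the FR1 range, so the groups overlapped. The summed epithelial marker level of FR3_1, FR3_2 and FR3_5, low in both genes, was 6775, 6107 and 4426 CPM, that of FR3_3 was 6351 CPM and that of FR3_4 was 1751 CPM. With the epithelial marker score as a covariate the log2 difference was -1.04 for DOCK8 and -0.59 for SLCO3A1 (adjusted p = 0.798 for both, edgeR). Over all alternatives their adjusted p ran from 0.202 to 0.998 and from 0.291 to 0.998.

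FR3 against FR2 gave 0 of 9 called by edgeR, DESeq2 and limma-voom, beside 0.00564% of all tested genes called by edgeR. Here 3 genes had an unadjusted p under 0.05, against 7.37% of all tested genes. DOCK8 differed by -1.06 ± 0.46 (unadjusted p = 0.0306), or by -0.70 without FR2_3, and SLCO3A1 by -0.77 ± 0.26 (unadjusted p = 0.00899), with an adjusted p of 0.666 for both in edgeR. MRAS went the other way, by 0.52 ± 0.22 (interval 0.06 to 0.98, unadjusted p = 0.0301, adjusted p = 0.666, edgeR). FR3_2 was the only FR3 library within the FR2 range of MRAS. For SNCAIP the difference was -0.89 ± 0.44, with an interval from -1.81 to 0.02 and an adjusted p of 0.67 in edgeR.

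A joint test of any difference among FR1, FR2 and FR3 called 0 of 9 by edgeR, DESeq2 and limma-voom, and 0.0% of all tested genes by edgeR. DOCK8 (unadjusted p = 0.0186) and SLCO3A1 (unadjusted p = 0.0144) were the 2 members at an unadjusted p under 0.05, where 5.26% of genes were; the adjusted p was 0.919 for both in edgeR. The FR1 level of these 2 genes took part in their choice, which bears on the comparisons with FR1 and on the joint test.

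The genes did not vary as 1 block from sow to sow. Over the 15 inseminated libraries, with each group's mean subtracted from log2 CPM, 16 of the 36 pairs of members had a positive Pearson correlation and 20 a negative one. SNCAIP, DOCK8 and SLCO3A1 were each positively correlated with one another. DOCK8 and SLCO3A1 had r = 0.85 (permutation p = 0.00122, adjusted p = 0.0439 over 36 pairs) and Spearman's rho = 0.82 (permutation p = 0.00195, adjusted p = 0.0702). This was the only pair past the threshold on r, and none passed on rho. Without the 2 libraries farthest from the median of DOCK8, r was 0.89; leaving out each library in turn r ran from 0.80 to 0.89, although the adjusted p was 0.05 or more in 11 of these 15 runs. Without FR1_1, FR1_4, FR2_3 and FR3_4, the libraries with the least epithelial signal, r was 0.83 and its adjusted p 0.593; over all alternatives that p ran from 0.00036 to 0.593.

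SNCAIP followed DOCK8 with r = 0.75 (permutation p = 0.00518, adjusted p = 0.0932; rho = 0.71, permutation p = 0.0107, adjusted p = 0.112; r = 0.66 without the 2 farthest libraries). SNCAIP and SLCO3A1 had r = 0.68 (permutation p = 0.0217, adjusted p = 0.205; rho = 0.68, permutation p = 0.0186, adjusted p = 0.112; r = 0.63 without the 2 farthest). A further 2 pairs had an unadjusted p under 0.05. ACPP and PAIP2B had r = 0.52 (permutation p = 0.039, adjusted p = 0.281; rho = 0.64, permutation p = 0.0173, adjusted p = 0.112; r = 0.77 without the 2 farthest). PRR16 and SLCO3A1 moved in opposite directions, with r = -0.60 (permutation p = 0.0228, adjusted p = 0.205; rho = -0.65, permutation p = 0.0127, adjusted p = 0.112; r = -0.72 without the 2 farthest).

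**Figure D3:**
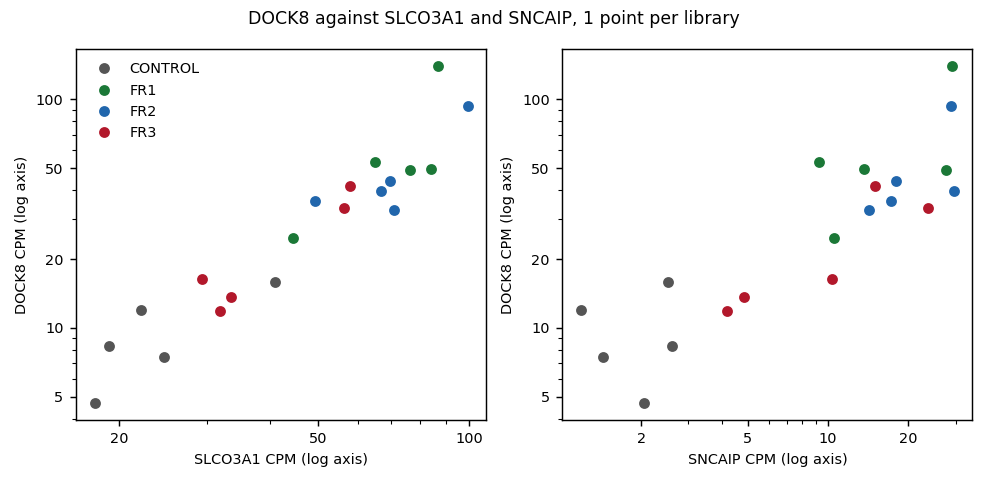
DOCK8 level against SLCO3A1 (left) and SNCAIP (right), 1 point per library, all axes TMM-scaled CPM on log axes. In the left panel FR3_1, FR3_2 and FR3_5 (11.8 to 16.4 CPM of DOCK8) lie beside the controls, and FR1_4 (139.5) and FR2_3 (93.0) lie at the upper end for all 3 genes.

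Markers of epithelium and stroma were looked up next, since the tissue is a mixture of both. Of 16 epithelial markers, 7 were called lower and 0 higher in the inseminated libraries by edgeR, where 8.2% of all tested genes were called lower and 2.87% higher, with a median log2 difference of -0.75, and 13 had a negative estimate. ELF3, an epithelial transcription factor, fell by 3.15 ± 0.39 on the log2 scale (adjusted p = 0.000112, edgeR), and the keratin KRT18 fell by 1.25 ± 0.17 (adjusted p = 0.000175, edgeR). The 2 most abundant markers did not pass, KRT8 at -0.46 ± 0.37 and KRT19 at 0.21 ± 0.45. Summed epithelial marker levels were 4783 to 8030 CPM in CONTROL, 1890 to 5264 in FR1, 2241 to 3870 in FR2 and 1751 to 6775 in FR3, and no marker of the list was at 0 in all libraries. The median sum was 5644 CPM in CONTROL, 3654 in FR1, 3326 in FR2 and 6107 in FR3, so FR3 was not lower than control by that measure. A sum gives most weight to the most abundant markers. Taken marker by marker, 3 of the 16 had a positive estimate in FR3 against control. Their median log2 difference there was -0.63, against -0.05 over all tested genes.

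Of 12 stromal fibroblast markers in the table, 3 were called higher and 0 lower, beside the same 2.87% and 8.2% of all tested genes, with a median log2 difference of 0.81. The called ones were PDGFRA, a receptor of platelet-derived growth factor (1.55 ± 0.31, adjusted p = 0.00345, edgeR), and the matrix genes LUM (1.42 ± 0.30, adjusted p = 0.00509, edgeR) and DPT (1.49 ± 0.43, adjusted p = 0.0292, edgeR). The most abundant were the collagens COL1A1 at 1.17 ± 0.43 and COL3A1 at 1.16 ± 0.40, which did not pass. Summed stromal levels were 1949 to 9067 CPM in CONTROL, 6639 to 15451 in FR1, 11128 to 14895 in FR2 and 4932 to 18449 in FR3. The log2 differences from control were also fitted with a marker score as a covariate. They stay a description, since they chose the genes. That score was the mean of the markers' log2 CPM, each standardised over all 20 libraries. No group mean was subtracted from it, so it also holds the gap between control and inseminated libraries. With the epithelial score SNCAIP went from 3.08 to 2.20, DOCK8 from 2.11 to 1.496 and SLCO3A1 from 1.26 to 0.90, while PAIP2B went from 1.75 to 2.06. With the stromal score they were 2.55 for SNCAIP, 2.07 for DOCK8 and 1.16 for SLCO3A1. With the epithelial score 9 of the 9 genes were called in the pooled comparison and 7 in each of FR1, FR2 and FR3; MRAS and DOCK8 were the 2 not called in FR1 and FR2. With the stromal score the counts were 9, 6, 7 and 7. DCX, MRAS and SLCO3A1 were then not called in FR1, nor MRAS and DOCK8 in FR2. Of all 17745 tested genes, 564 were called higher in FR1 with the epithelial score and 54 with the stromal score. Calls in either direction over all tested genes rose with the epithelial score in FR1, FR2 and FR3. With the stromal score they fell in the pooled comparison, in FR1 and in FR2, and rose in FR3. The counts with a score are therefore not read as a result about the members. The part of tissue composition in these differences was not tested further.

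Within the inseminated groups no member's relation to a marker score passed adjustment. Here a score is the mean of its markers' standardised deviations from the group mean, unlike the covariate above, and 9 genes by 6 scores gave 54 tests. Of these, 5 had an unadjusted permutation p under 0.05 and 0 an adjusted one, the lowest adjusted p being 0.275. Toward the stromal score the 9 genes ran from r = -0.25 for YPEL1 to r = 0.45 for DCX, 7 positive and 2 negative, none with an unadjusted p under 0.05. The median size of r over all tested genes was 0.373 for that score. Toward the epithelial score 7 genes were negative and 2 positive, from SNCAIP at -0.69 to PRR16 at 0.33. SLCO3A1 (-0.54), MRAS (-0.49) and DOCK8 (-0.48) followed SNCAIP in size, and the median size over all tested genes was 0.474.

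**Figure D4:**
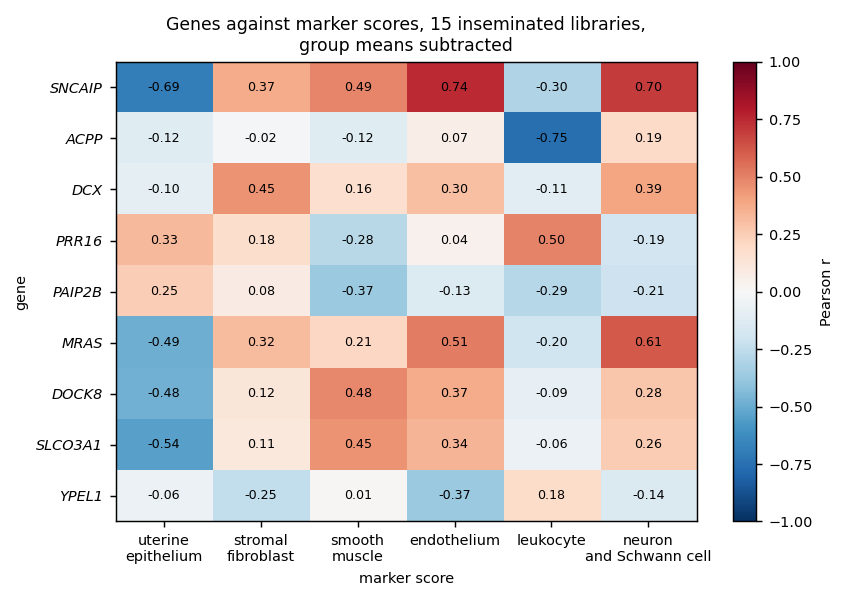
Pearson correlation of each gene (rows) with 6 cell-type marker scores (columns) over 15 inseminated libraries after subtracting group means; red is positive, blue negative. The strongest cells are ACPP with the leukocyte score (-0.75) and SNCAIP with the endothelium (0.74), neuron and Schwann cell (0.70) and epithelium (-0.69) scores, and the stromal column holds no value above 0.45.

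SNCAIP held 3 of the 5 relations at an unadjusted p under 0.05, none past adjustment. The 3 scores involved moved together over the same libraries (r = -0.77 for epithelium with endothelium, -0.79 for epithelium with nerve and 0.81 for endothelium with nerve). For SNCAIP the r of -0.69 with the epithelial score (permutation p = 0.0153, adjusted p = 0.275; rho = -0.63, permutation p = 0.0372, adjusted p = 0.534) was -0.47 without the 2 farthest libraries and -0.05 without FR1_1, FR1_4, FR2_3 and FR3_4. FR1_1, FR1_4, FR2_3 and FR3_4 are at the low end of the epithelial signal, and leaving them out narrows its range. The drop in r therefore cannot show whether the relation rests on them. Leaving out each library in turn r ran from -0.81 to -0.54. Of all tested genes 25.6% had an r at least as large in size with that score. With the endothelial score SNCAIP had r = 0.74 (permutation p = 0.015, adjusted p = 0.275; rho = 0.68, permutation p = 0.0396, adjusted p = 0.534; r = 0.52 without the 2 farthest), and 10.7% of genes were as large. With the neuron and Schwann cell score it had r = 0.70 (permutation p = 0.0332, adjusted p = 0.448; rho = 0.71, permutation p = 0.0294, adjusted p = 0.534; r = 0.60 without the 2 farthest), and 15.1% of genes were as large. MRAS had r = 0.61 with the latter score (permutation p = 0.0458, adjusted p = 0.49; rho = 0.43, permutation p = 0.165, adjusted p = 0.715; r = 0.39 without the 2 farthest), and 26.97% of genes were as large.

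Of the 54 correlations the largest in size was that of ACPP with leukocyte markers. Its r with the leukocyte score was -0.75 (permutation p = 0.0107, adjusted p = 0.275; rho = -0.73, permutation p = 0.00832, adjusted p = 0.449), and 1.03% of all tested genes had an r as large in size. Without the 2 libraries farthest from the median score r was -0.93, and without FR1_4 alone it was -0.95 with an adjusted p of 0.00432 (from 0.00432 to 0.753 over all alternatives); leaving out each library in turn r ran from -0.95 to -0.62. FR1_1, with the most ACPP (17.6 CPM), had a summed leukocyte level of 111 CPM, and FR1_5, with the least (5.35 CPM), had 196 CPM. In FR3, FR3_3 paired 7.03 CPM of ACPP with 183 CPM of leukocyte markers. Other libraries did not follow that order: FR1_4 had 8.23 CPM of ACPP with the lowest leukocyte level of its group (94.5 CPM), and FR2_3 had 12.7 CPM with the highest of its group (154 CPM). Summed leukocyte levels were 79.6 to 253 CPM in CONTROL and 94.5 to 196 CPM over FR1, FR2 and FR3, no marker was at 0 in all libraries, and 1 of 13, the monocyte receptor CD14, was called lower after insemination (-1.80 ± 0.47, adjusted p = 0.0185, edgeR), beside 8.2% of all tested genes; DESeq2 and limma-voom called 0 of the 13. The most abundant of the 13, LCP1 and CSF1R, were at 0.35 ± 0.22 and -0.21 ± 0.22 and did not pass.

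The nerve markers bear on SNCAIP and DCX by their names. Of 9 nerve and Schwann cell markers tested 0 were called in either direction by edgeR after insemination, beside 11.1% of all tested genes. Of the 9, 0 had an unadjusted p under 0.05 and 0 were called by DESeq2 and limma-voom. Such a p was common: in FR1 against control alone, 3230 of 17745 tested genes had it by edgeR. The summed level of the list was 30.6 to 174 CPM in CONTROL and 55.5 to 234 CPM in the inseminated libraries. The most abundant of these markers were S100B (0.14 ± 0.35) and UCHL1 (0.44 ± 0.56). DCX had r = 0.39 with that score. Smooth muscle (10 markers) and endothelium (10 markers) also had 0 called by edgeR, DESeq2 and limma-voom and 0 at an unadjusted p under 0.05. The muscle genes TAGLN and ACTA2 were at -0.56 ± 0.51 and -0.33 ± 0.52, and the vessel genes VWF and PECAM1 at 0.19 ± 0.24 and 0.73 ± 0.36.

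ACPP is an enzyme of semen, so transcripts of sperm and of accessory glands were looked up. The sperm transcript TNP1 had no count in any library, and over all 20 libraries PRM1 had 4 counts, PRM2 had 2, ODF1 had 4 and ACR had 4. Of 11 genes on the sperm list 5 were tested and 0 called by edgeR, DESeq2 and limma-voom, beside 11.1% of all tested genes by edgeR. Of the 5, 2 had an unadjusted p under 0.05 by edgeR, as did 3230 of 17745 tested genes in FR1 against control alone. The most abundant, AKAP4 and CATSPER1, were at -0.79 ± 0.67 and -0.82 ± 0.38. The seminal plasma genes PSP-II and BSP1 had no count, PSP-I had 5 counts and AQN-1 had 8. Of the list of seminal plasma and accessory gland genes 3 were tested, and 1 was called higher by edgeR and by DESeq2 and 0 by limma-voom. By edgeR 2.87% of all tested genes were called higher. The called gene had a log2 difference of 1.96, the only positive one of the 3. The summed level of that list was 4.24 to 16.6 CPM in CONTROL, 6.55 to 19.5 in FR1, 10.04 to 19.4 in FR2 and 11.8 to 24.9 in FR3. MSMB, a secreted protein of the list, was at -0.21 ± 0.28 on the log2 scale and did not pass.

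Relatives and partners of the 9 genes were called at a share near that of all genes. Of 68 tested genes in 8 family lists, 2 were called higher and 7 lower after insemination by edgeR, 13.2% in all, against 11.1% of all tested genes, of which 510 were higher and 1455 lower. ACP5, the tartrate-resistant acid phosphatase that pig uterine glands secrete as uteroferrin, fell by 5.12 ± 0.73 (adjusted p = 0.000254, edgeR), with 11.6 to 2414 CPM in CONTROL and 3.25 to 40.5 CPM after insemination. It was the only called gene of 5 acid phosphatases tested beside ACPP, and its groups overlapped.

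Of the translation partners EIF4EBP1, a repressor of cap-dependent translation, fell by 1.27 ± 0.25 (adjusted p = 0.00286, edgeR) and its relative EIF4EBP2 rose by 0.52 ± 0.16 (adjusted p = 0.043, edgeR). These were the 2 called of 10; PAIP2, the close relative of PAIP2B, was at 0.27 ± 0.17. Of 11 genes of the RAS family and the SHOC2 complex, RRAS2 (-0.93 ± 0.17, adjusted p = 0.00201, edgeR) and HRAS (-0.52 ± 0.17, adjusted p = 0.0486, edgeR) were lower and the kinase ARAF (0.79 ± 0.24, adjusted p = 0.0386, edgeR) was higher. SHOC2 itself, the direct partner of MRAS, was at 0.21 ± 0.18 and did not pass.

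Of 13 DOCK family and CDC42 genes 0 were called by edgeR, DESeq2 and limma-voom, with 1 at an unadjusted p under 0.05. In FR1 against control alone, 3230 of 17745 tested genes had such a p by edgeR. Of 9 genes of the doublecortin list 0 were called by the same tools and 0 had an unadjusted p under 0.05. The gene with the smallest p was DOCK1 in the first (-0.57 ± 0.23, adjusted p = 0.124, edgeR) and NDEL1 in the second (0.22 ± 0.11, adjusted p = 0.229, edgeR). Of 7 organic anion transporters tested beside SLCO3A1, SLCO4C1 was lower (-1.68 ± 0.41, adjusted p = 0.0127, edgeR). Of the other 4 yippee-like genes YPEL3 was lower (-1.07 ± 0.33, adjusted p = 0.0394, edgeR).

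The position of the genes was looked up as a description. On the Sscrofa11.1 gene order no 2 members lie next to each other. Of their 18 direct neighbours 14 were tested and 0 were called in either direction after insemination by edgeR, DESeq2 and limma-voom. By edgeR 11.1% of all tested genes were called, and at that share 14 genes are too few to show a pattern or its absence. Of the 14, 3 had an unadjusted p under 0.05 by edgeR, as did 3230 of 17745 tested genes in FR1 against control alone. LOX, beside SNCAIP, had the largest positive estimate among neighbours, 1.102 ± 0.64, and ESYT3, beside MRAS, the largest negative one, -1.42 ± 0.58.

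The genes most like each member over the 15 inseminated libraries, group means subtracted, were also looked up, as a description over genes that share libraries. Nearest to SNCAIP were CLDN10 (r = 0.98), LRP5 (0.97) and PON3 (0.96), and 584 genes had an r of at least 0.8 with it. DOCK8 had 156 such genes, led by GPC1 (0.91), EME1 (0.90) and CEP164 (0.90), and SLCO3A1 had 165, led by FAM136A (0.92), SOAT2 (0.92) and ERCC6L (0.91). The other members had fewer companions. How many a typical tested gene has was not counted, so these numbers are not read as traits of the members. PAIP2B had 63, led by AKAP11 (0.93), PDS5A (0.91) and EMSY (0.89); ACPP had 18, led by RP1 (0.88), VPS8 (0.87) and FLRT1 (0.86).

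PRR16 had 16, led by ADORA2B (0.87), ADGRB1 (0.85) and CA8 (0.84). MRAS had 10, among them BTF3L4 (0.85) and FRZB (0.85), and DCX had 6, led by TMX4 (0.84), SIAE (0.84) and MUC5AC (0.84). YPEL1 had 0, and its nearest was EEF2 (0.78), ahead of SEC61A1 (0.75) and MAZ (0.74). Their own differences from control went both ways. Of the nearest genes RP1 (2.21 ± 0.42, adjusted p = 0.00227), LRP5 (0.67 ± 0.20, adjusted p = 0.0326) and TMX4 (0.54 ± 0.15, adjusted p = 0.0263) were called higher by edgeR. ADORA2B, an adenosine receptor that tracked PRR16 within groups, was called lower (-4.28 ± 0.67, adjusted p = 0.000449, edgeR).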

How the data were processed

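Poly(A) RNA of 20 uterine samples was sequenced as paired reads, per the labels' protocols. They describe a dUTP and a dTTP form of the second strand without saying which applied, so antisense overlap could not be separated. The submitters' processing notes name Salmon 1.10.1, STAR 2.7.9a and CASAVA; which build and annotation served is not given in the sources used here.

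Unscaled estimated counts for each gene were deposited by the authors; 87.2% were whole, and all were rounded. Of 30369 rows, 24 name no gene (0.0036% to 0.0133% of a library's counts) and were left out. Column names give the group and a number from 1 to 5 but not the sow.

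edgeR 4.0.16 (R 4.3.3) fitted all 20 libraries together with TMM factors after filterByExpr, with 16 residual degrees of freedom, by the 2-sided quasi-likelihood test. SEs are the log2 difference over the root of F; intervals are 95% t intervals. Correlations used log2 CPM with a prior count of 2, group means subtracted, and 100000 2-sided permutations within groups. Sows are the replicates, and the p-values of group differences set each difference against the spread between sows. Alternatives used DESeq2 1.42.0, limma-voom (3.58.1), other filters, factors, covariates and left-out libraries. The edgeR procedure and the correlation step were tested on simulated data.

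The members and all gene lists were chosen with earlier results of these data known. Named genes are the members, per member the 3 tested genes with a symbol and the highest r, per family list up to 4 called genes with the smallest p (otherwise 1 that did not pass), and per marker list the 2 most abundant genes and up to 2 called ones. DPT, PAIP2, SHOC2, the neighbours LOX and ESYT3, and the sperm and seminal transcripts were named after their values were seen. A few genes the rule names are not reported here. RefSeq (Sscrofa11.1) served for names and gene order only, and matched 9 of 9 members.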

Additional observations from a re-analysis of the deposited data

Results flagged for a closer look

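DOCK8 in library FR1_4 was 139.5 CPM, far above the other 4 FR1 libraries (24.7 to 52.9 CPM): its gap to the nearest was 0.754 of the group's range, over Dixon's 95% critical value of 0.71 for 5 samples. DOCK8 in FR2_3 was 93.0 CPM against 32.9 to 43.7 CPM in the other FR2 libraries, with a gap of 0.82 of the range. The same 2 libraries held 86.7 and 99.4 CPM of SLCO3A1 and 29.2 and 28.9 CPM of SNCAIP, and both had low summed epithelial marker levels (1963 and 2241 CPM). The part of epithelial content in these 2 values was not tested. The 9 genes in 4 groups gave 36 groups checked, and chance flags about 1 in 20 where values are normally distributed. The check was run on CPM. On a log scale, which was not checked, both gaps would be a smaller share of the range.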

How the results depend on the processing

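All 9 genes kept a positive difference from control under every alternative run. Genes called after insemination (1965) became 1308 with limma-voom, 1253 with the stromal score as covariate, 523 without CONTROL_2, CONTROL_3 and CONTROL_4, and 770 at an adjusted p under 0.01. For FR1, 461 became 1450 with DESeq2, 185 with limma-voom, 888 with the epithelial score, 130 with the stromal score, 0 with only the groups compared, 208 without the 3 controls, 22 without FR1_1, FR1_4, FR2_3 and FR3_4 (the 4 libraries), and 19 at 0.01. For FR2, 985 became 2125 with DESeq2, 1546 and 288 with the 2 scores in that order, 1 with only the groups compared, 420 without the 3 controls, 474 without the 4 libraries and 137 at 0.01. For FR3, 758 became 1876 with DESeq2, 295 with limma-voom, 2349 and 1293 with the 2 scores, 0 with only the groups compared, 7 without the 3 controls and 0 at 0.01. Among the inseminated groups DESeq2 gave 12 genes in FR3 against FR1, 21 in FR3 against FR2 and 26 for any difference, none of them a member; the 1 gene of FR3 against FR2 in edgeR became 0 with the stromal score, without the 4 libraries and at 0.01. Called family genes (9) became 16 with the epithelial score and 1 without the 3 controls. Correlations with scores past adjustment (0) became 3 without subtracting group means, 16 over all 20 libraries, where the gap to control enters, 1 without the 2 farthest libraries and 1 without the 4 libraries; those between members (1) became 4, 4 without the 2 farthest and 0 without the 4. Leaving out each library in turn gave 988 to 2730 genes after insemination, 99 to 1372 in FR1, 309 to 1881 in FR2, 58 to 1869 in FR3, 0 to 1 in FR3 against FR2 and for any difference, 4 to 17 family genes, 0 to 1 correlations with scores and 0 to 2 between members. Without the 3 controls DOCK8 (1.87, adjusted p = 0.133), SLCO3A1 (0.88, 0.168) and YPEL1 (0.87, 0.0684) were no longer called after insemination by edgeR; their adjusted p otherwise stayed under 0.05. With only the groups compared no member was called in FR1 (adjusted p = 0.193) or FR3, and SNCAIP alone was called in FR2. Without the 4 libraries PRR16 and SNCAIP alone were called in FR1, and without the 3 controls DCX, PAIP2B and SNCAIP alone; without the 3 controls 5 of the 9 were called in FR2 and 0 in FR3. Uncalled differences changed sign as follows. In FR2 against FR1, SLCO3A1 was 0.040 with the epithelial score and 0.0024 with limma-voom, and MRAS 0.083 without the 4 libraries. Leaving out each library in turn gave -0.034 to 0.42 for ACPP, -0.21 to 0.034 for MRAS, -0.73 to 0.15 for DOCK8 and -0.15 to 0.10 for SLCO3A1. In FR3 against FR1, ACPP was 0.080 with the epithelial and 0.083 with the stromal score, 0.23 without the 4 libraries and -0.24 to 0.22 without each library in turn, and PAIP2B -0.21 to 0.056. The causes were not tested beyond what each setting removes. No paired analysis was possible because the column numbers do not name sows and no sow belongs to more than 1 group.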
